A study of Oryza sativa with 12 samples.

Results

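Aquaporins are membrane channels that pass water or small uncharged solutes, and 10 of their rice genes were followed here through 4 groups of seedlings. The genes were taken from the authors' deposited Cuffdiff table by their locus identifiers and make up 10 of its 37672 merged loci. They are 3 PIP1 genes, 2 PIP2 genes, 3 TIP genes and the silicon channel genes LSI1 and LSI6. RefSeq (assembly ASM3414082v1) gives all 10 these names at a matching place, and its hyphenated spelling (PIP1-1 for OsPIP1;1) is used. All 10 were tested in each of the 6 pairwise comparisons.

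RNA of whole aerial parts from Oryza sativa, cultivar Nipponbare, had been sequenced in 12 samples, 3 biological replicates for each of 4 groups. Wild-type seedlings were taken at 5 days (called the 5-day plants) and at 12 days (the 12-day controls). The other groups were 12-day T3 seedlings of 2 lines, a and b, in which OsC3'H1 of the lignin pathway was knocked out. All plants began in sterile boxes of diluted Murashige and Skoog medium set with agar, at 27 °C. On day 7 the wild-type controls went into a hypotonic solution of tap water, so that the 12-day controls had been moved and the 5-day plants had not. No such move is described for the knockout plants, and genotype and growth medium therefore cannot be told apart between the knockouts and 12-day controls, nor age and medium between the wild types. The sample titles and source names assign the letters a and b in opposite ways. The titles were followed, and a value given for 1 line belongs to the other if the source names are right.

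PIPs sit mainly in the plasma membrane, where PIP2 proteins are efficient water channels and PIP1 proteins often reach the membrane only in company with PIP2 partners. TIPs sit in the membrane of the vacuole, the compartment that holds most of a plant cell's water and takes up much of any osmotic change. LSI1 (NIP2-1) carries silicic acid into rice root cells and works together with the exporter LSI2, whereas LSI6 (NIP2-2) takes silicic acid out of the xylem into the tissues of leaf sheaths and blades. Rice accumulates silicon as solid silica in its shoot.

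The table gives FPKM, fragments scaled by transcript length and by the size of the library, as 1 value per group over its 3 replicates. Depth per library is unknown, and no spread between single replicates can be given. The error beside a log2 ratio is the one implied by the deposited test statistic (ratio over statistic), and an error of each group's level was solved from the 6 ratios. Intervals of levels are ± 1 such error, and those of ratios are 95% intervals. A gene was called, and is said to have risen or fallen, where Cuffdiff's deposited q was under 0.05. The targeted gene, OsC3'H1 (Os05g0494000), stood at 65.7 FPKM in 5-day plants, 53.1 in 12-day controls, 10.7 in line a and 12.9 in line b. Leaf markers RBCS, CAB1R, CAB2R and RCA summed to 25948 and 33162 FPKM in 5-day plants and 12-day controls and to 2626 and 2316 in lines a and b, and 4 of 4 fell in both lines against each wild-type group. Between the wild types they did not move together: CAB1R and CAB2R fell 6.02-fold and 3.08-fold from 5 to 12 days, RCA rose 1.94-fold and RBCS was not called. In bulk tissue, fewer cells of a type and less RNA per cell cannot be told apart.

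Expression of the 10 genes fell into an abundant and a scarce set. TIP1-1, PIP1-1, PIP1-2, PIP2-1 and TIP2-2 stood between 498 and 1088 FPKM in every group. PIP2-2 lay lower, from 85.4 to 198 FPKM. PIP1-3, TIP1-2, LSI1 and LSI6 never exceeded 67.7 FPKM. FPKM is scaled by transcript length, so these levels can be set side by side. How reads shared by near-identical genes were treated is not known, which limits the comparison of close relatives.

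The leading gene was TIP1-1 in 5-day plants at 1088 FPKM, PIP1-1 in 12-day controls at 871, and PIP1-2 in lines a and b at 983 and 899. In 5-day plants the intervals of ± 1 implied error overlapped between each neighbour from TIP1-1 through PIP1-2, PIP1-1 and PIP2-1 to TIP2-2. The order of neighbours was thus not resolved, though the interval of TIP1-1 (974 to 1216 FPKM) lay above that of TIP2-2 (768 to 940). Neighbours among the 5 abundant genes also overlapped in 12-day controls and in line b. In both of these groups the intervals of PIP1-1 and PIP1-2 lay above those of TIP2-2 and PIP2-1. In line a TIP2-2, at 498 FPKM, lay clear below PIP2-1, at 679 FPKM. PIP2-2 was sixth in every group. Its interval was separate from those of its neighbours in the 2 wild types, while in both knockouts it overlapped that of PIP1-3.

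**Figure D1:**
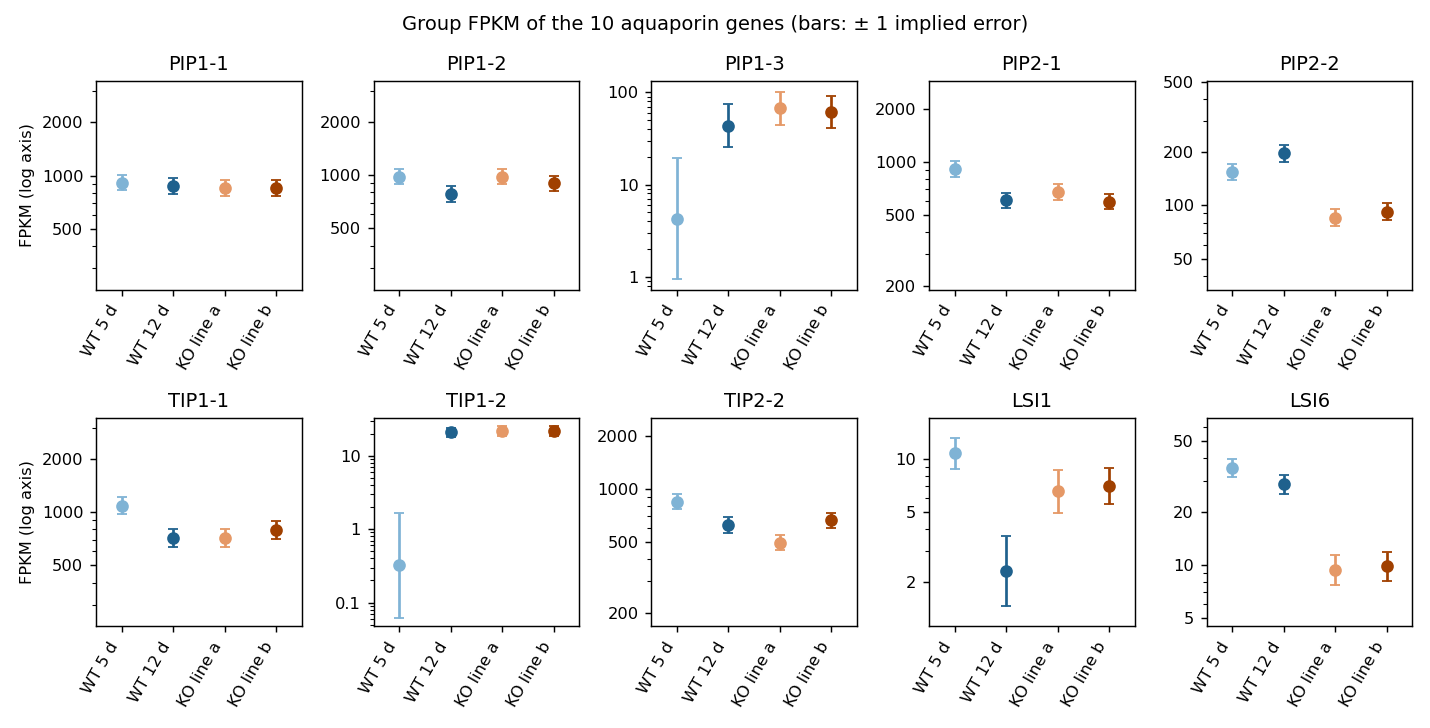
Level of each of the 10 genes in FPKM (log axis, a separate range per panel) in the 4 groups, 1 value per group over 3 replicates, with bars of ± 1 implied error. WT 5 d and WT 12 d are the 5-day plants and the 12-day controls. PIP1-1 stays between 849 and 911 FPKM, PIP2-2 and LSI6 are lower in both knockouts than in either wild type, LSI1 is lowest in 12-day controls, and PIP1-3 and TIP1-2 have wide bars in 5-day plants.

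Summed over the 10 genes, the level was 4946 FPKM in 5-day plants, 3899 in 12-day controls, 3918 in line a and 3995 in line b. All 3 groups of 12-day seedlings thus lay within 3899 to 3995, below the 5-day plants. PIP1 genes made up 38.3% of this sum in 5-day plants, 43.5% in 12-day controls, 48.6% in line a and 45.3% in line b. TIP genes' share was 39.2%, 35.1%, 31.5% and 37.0% in the same order, and the PIP2 share was 21.5%, 20.6%, 19.5% and 17.3%. These sums carry no test. Together with 23 further aquaporin loci the family summed to 5884, 4715, 4616 and 4698 FPKM, of which the 10 genes gave 84.0%, 82.7%, 84.9% and 85%.

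**Figure D2:**
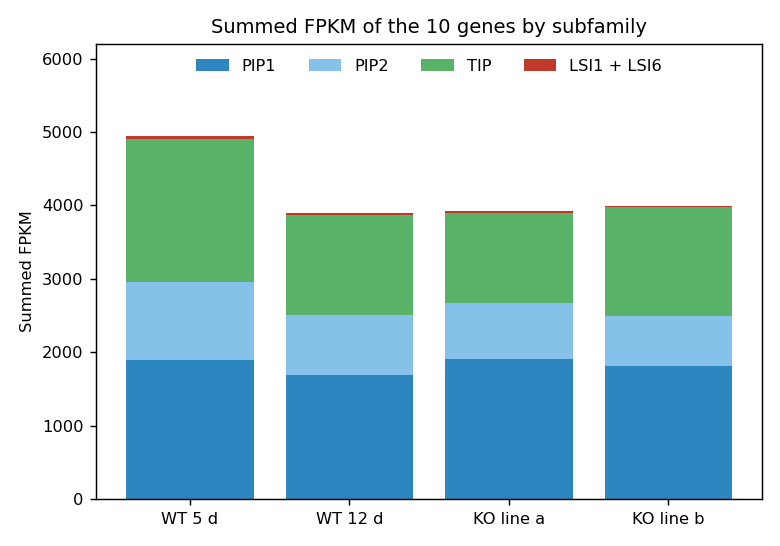
Summed FPKM of the 10 genes in each group, stacked as PIP1 (3 genes), PIP2 (2 genes), TIP (3 genes) and LSI1 with LSI6. The 5-day plants reach 4946 and the other groups 3899 to 3995, and LSI1 with LSI6 form only a thin band.

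Of the PIP1 genes, PIP1-1 (Os02g0666200, IRGSP-1.0 chromosome 2, 27044340 to 27047381 as the table gives it) was level across the study. It stood at 911 FPKM in 5-day plants, 871 in 12-day controls, 852 in line a and 849 in line b, and was called in none of the 6 comparisons by Cuffdiff, nor at an unadjusted p under 0.05 in any. Its largest ratio, line b against 5-day plants, was log2 -0.10 (implied error 0.21, 95% interval -0.50 to 0.30). A call that was not made does not show that the levels were equal.

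PIP1-2 (Os04g0559700, chromosome 4, 28046581 to 28048410) stood at 982 FPKM in 5-day plants, 781 in 12-day controls, 983 in line a and 899 in line b. Lowest were the 12-day controls, and the knockouts lay at or near the 5-day level. In the authors' deposited table it fell from 5 to 12 days in wild type (log2 -0.33, implied error 0.21, Cuffdiff q = 0.0185) and was higher in line a than in 12-day controls (log2 0.33, implied error 0.21, q = 0.0148). Line b was not called there (log2 0.20, q = 0.169), and the lines were not called against each other (log2 -0.13, 95% interval -0.53 to 0.28). Both calls end at q under 0.01 and when the test statistic is read as a normal deviate.

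PIP1-3 (Os02g0823100), also known as RWC3, was listed at 4.27 FPKM in 5-day plants, 43.6 in 12-day controls, 67.7 in line a and 61.0 in line b. Its 5-day value was 10.2-fold, 15.9-fold and 14.3-fold below the others, but Cuffdiff called none of these ratios. The implied error of log2 3.35 for the wild types was 2.32, and the level at 5 days had an interval of 0.937 to 19.4 FPKM. Of 83 tested loci at least 10-fold higher in 12-day controls than in 5-day plants, 42 were likewise not called, and of the 25 among the 83 with an implied error above 2 only 1 was called. The table gives PIP1-3 the coordinates of a stretch of chromosome 2, 35274977 to 35368901, that it also gives to other loci, 18 in all, so the gene's own bounds are not given there.

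The 2 PIP2 genes went different ways. PIP2-1 (Os07g0448800, chromosome 7, 15406441 to 15409748) stood at 910.3 FPKM in 5-day plants, 607 in 12-day controls, 679 in line a and 597 in line b. All 12-day groups were below the 5-day plants, and their intervals did not reach that of the 5-day group. By the deposited values PIP2-1 was 1.5-fold lower in 12-day controls than in 5-day plants (log2 -0.58, implied error 0.21, Cuffdiff q = 2.53e-04). It was also called lower than 5-day plants in line a (log2 -0.42) and line b (log2 -0.61). Against 12-day controls the ratios were 0.16 (95% interval -0.24 to 0.57) and -0.02 (-0.43 to 0.38), and neither was called. In line a the call against 5-day plants ends when the test statistic is read as a normal deviate.

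PIP2-2 (Os02g0629200, chromosome 2, 25162875 to 25166544) stood at 155 FPKM in 5-day plants, 198 in 12-day controls, 85.4 in line a and 91.9 in line b. Both knockouts were below both wild types, and no interval of a knockout reached that of a wild type. In the deposited table PIP2-2 was 2.31-fold lower in line a and 2.15-fold lower in line b than in 12-day controls (log2 -1.21 and -1.11, implied errors 0.23 and 0.22, Cuffdiff q = 2.53e-04 each). Against 5-day plants it was 1.81-fold and 1.68-fold lower (log2 -0.86 and -0.75). It was the only member that rose from 5 to 12 days in wild type (log2 0.35, implied error 0.22, q = 0.0177), a call that ends at q under 0.01. The fall in the knockouts moved with that of the leaf markers, whose part in it was not tested.

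The TIP genes TIP1-1 and TIP2-2 were both highest at 5 days. TIP1-1 (Os03g0146100) stood at 1088 FPKM in 5-day plants, 719 in 12-day controls, 715 in line a and 793 in line b. All 12-day groups overlapped one another and lay below the 5-day group. TIP1-1 fell 1.51-fold from 5 to 12 days in wild type (log2 -0.60, implied error 0.23, Cuffdiff q = 2.53e-04), and lines a and b were lower than 5-day plants by log2 -0.61 and -0.46. Against 12-day controls the lines had ratios of -0.01 (95% interval -0.47 to 0.46) and 0.14 (-0.33 to 0.61), which were not called. Read as a normal deviate, the statistic keeps only the call of line a against 5-day plants. TIP1-1 shares its listed coordinates (chromosome 3, 2492198 to 2564646) with other loci, 17 in all. The coordinates printed for PIP1-1, PIP1-2 and PIP2-2 are also shared, by 2 loci each, and need not be the genes' own bounds.

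TIP2-2 (Os06g0336200, chromosome 6, 13407318 to 13408715) stood at 849 FPKM in 5-day plants, 628 in 12-day controls, 498 in line a and 665 in line b. Line a was the low group, and line b lay beside 12-day controls. The gene fell from 5 to 12 days in wild type (log2 -0.44, implied error 0.21, Cuffdiff q = 9.14e-04) and was lower in both lines than in 5-day plants (log2 -0.77 and -0.35). Line a was lower than 12-day controls (log2 -0.34, q = 0.0147), line b was not called (log2 0.08), and the lines differed from each other, line b being 1.34-fold higher (log2 0.42, implied error 0.21, q = 0.00132). Of these 5 calls only that of line a against 5-day plants holds when the statistic is read as a normal deviate.

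TIP1-2 (Os01g0975900, chromosome 1, 43115746 to 43117221) was listed at 0.321 FPKM in 5-day plants and at 20.7, 21.7 and 21.6 FPKM in 12-day controls, line a and line b. The 12-day groups were nearly equal, with log2 ratios of 0.07 (95% interval -0.52 to 0.67) in line a and 0.06 (-0.53 to 0.66) in line b against 12-day controls. The 64.5-fold difference between the wild types (log2 6.01) had an implied error of 2.39 and a 95% interval of 1.33 to 10.7, and was not called by Cuffdiff (q = 0.332). With 1 FPKM added to both values the log2 ratio was 4.04. The interval of the 5-day level, 0.0616 to 1.67 FPKM, lay below the interval of 17.8 to 24.0 in 12-day controls.

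Against 12-day controls the silicon channels moved in opposite directions in the knockouts. LSI1 (Os02g0745100, chromosome 2, 31266327 to 31269935) stood at 10.7 FPKM in 5-day plants, 2.31 in 12-day controls, 6.56 in line a and 6.99 in line b. Its level was lowest in the 12-day controls, whose interval did not overlap that of any other group at ± 1 implied error. LSI1 fell 4.65-fold from 5 to 12 days in wild type (log2 -2.22, implied error 0.71, Cuffdiff q = 2.53e-04). It was 2.84-fold higher in line a and 3.02-fold higher in line b than in 12-day controls (q = 0.00574 and 0.00337), with implied errors of 0.77 and 0.74. Against 5-day plants both lines were lower (log2 -0.71 and -0.62, q = 0.0187 and 0.0335). With the statistic read as a normal deviate only the fall from 5 to 12 days keeps its call.

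LSI6 (Os06g0228200, chromosome 6, 6648403 to 6653002) stood at 35.2 FPKM in 5-day plants, 28.5 in 12-day controls, 9.35 in line a and 9.79 in line b. Both knockouts lay well below both wild types, with no overlap. LSI6 was 3.05-fold lower in line a and 2.91-fold lower in line b than in 12-day controls (log2 -1.61 and -1.54, implied errors 0.33 and 0.32, Cuffdiff q = 2.53e-04 each). Against 5-day plants it was 3.76-fold and 3.59-fold lower (log2 -1.91 and -1.85). The wild types were not called against each other (log2 -0.30, 95% interval -0.79 to 0.18, q = 0.0747). All 4 knockout calls hold at q under 0.01, with a 2-fold minimum and with the statistic read as a normal deviate. As with PIP2-2, the leaf markers fell in the same groups and their part was not tested.

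Within each group the level of LSI6 was 3.27 times that of LSI1 in 5-day plants, 12.3 times in 12-day controls, 1.43 times in line a and 1.40 times in line b. In both knockouts the intervals of the 2 genes overlapped, and in both wild types they did not. LSI1 is described as a root gene, and the tissue was aerial. Of 5 root markers LSI2, the silicic acid exporter, and NRT2.1, a nitrate transporter, were listed at 0 in all 4 groups, and the other 3 were detected. IRT1, an iron transporter, was listed at 0.986 FPKM in 5-day plants, 0.123 in 12-day controls, 0.583 in line a and 0.787 in line b, untested but in the same order as LSI1. The marker locus Os02g0662000, which has no matching RefSeq name, lay between 0.703 and 2.48 FPKM. HKT2;1, a sodium transporter, stood at 3.64, 5.95, 4.56 and 5.23 FPKM in 5-day plants, 12-day controls, line a and line b, and was the only 1 of the 5 with enough fragments to be tested. It rose from 5 to 12 days in wild type (log2 0.71, Cuffdiff q = 0.0485), where LSI1 fell, and was not called in the other comparisons. The 5 markers summed to 6.0 FPKM in 5-day plants, 8.45 in 12-day controls, 5.85 in line a and 8.49 in line b, a sum made up mostly of HKT2;1 and Os02g0662000. The part of root tissue in the LSI1 values was not tested.

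**Figure D3:**
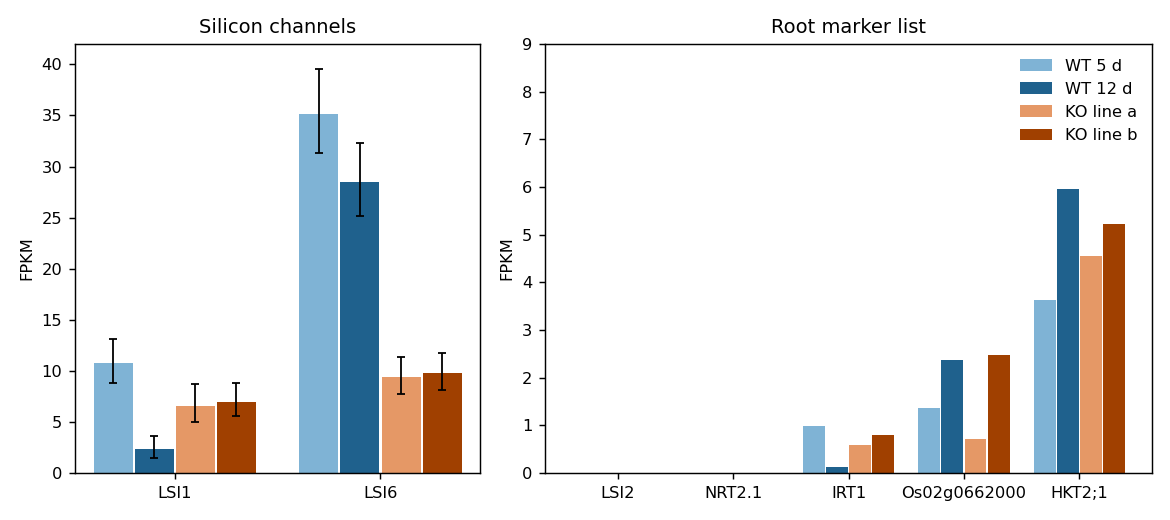
FPKM (linear axes) of LSI1 and LSI6, with bars of ± 1 implied error, and of the 5 root markers, in the 4 groups. LSI1 is lowest in 12-day controls at 2.31 FPKM, LSI6 stands at 35.2 and 28.5 FPKM in the wild types and at 9.35 and 9.79 in the knockouts, and LSI2 and NRT2.1 are listed at 0 throughout.

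The comparison of 12-day controls with 5-day plants asks what changed with age and with the move to tap water. Of the 10 genes 5 fell (PIP1-2, PIP2-1, TIP1-1, TIP2-2 and LSI1) and 1 rose (PIP2-2). Of all 17250 loci tested, 28.3% were called, 13.5% lower and 14.8% higher. The median log2 ratio of the 10 genes was -0.32, beside -0.01 over all tested loci. Except for LSI1 the called changes were below 2-fold, from log2 -0.60 to 0.35. The leaf markers went different ways in this comparison. CAB1R and CAB2R fell (log2 -2.59 and -1.62, Cuffdiff q = 2.53e-04 each), RCA rose (log2 0.95, q = 0.00132) and RBCS was not called (log2 0.24). The leaf markers' part in the members' changes was not tested.

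Comparing each line with 12-day controls asks what differed between plants of the same age. In line a 2 of the 10 genes were higher (PIP1-2 and LSI1) and 3 lower (PIP2-2, TIP2-2 and LSI6), and in line b 1 was higher (LSI1) and 2 were lower (PIP2-2 and LSI6). Over the whole table the shares of tested loci called were 44.8% for line a, 21.3% higher and 23.5% lower, and 46.3% for line b, 22.2% higher and 24.2% lower. The members' counts of 5 and 3 out of 10 are near or under these shares. Their median log2 ratios were 0.03 and 0.07, beside medians of 0.00 over all tested loci in both lines.

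Comparing each line with 5-day plants sets knockouts beside wild-type plants that had not yet been moved, at another age. In each line 6 of the 10 genes were lower (PIP2-1, PIP2-2, TIP1-1, TIP2-2, LSI1 and LSI6), where 50.9% (line a) and 52.2% (line b) of all tested loci were called, 26.2% and 26.6% lower. By Cuffdiff 0 of the 10 were higher, and 0 at an unadjusted p under 0.05, beside 24.7% and 25.6% of all tested loci. The median log2 ratios of the 10 genes were -0.51 and -0.40, beside 0.00 over all loci. The comparisons with 1 wild type share its libraries, so the lines' counts are not separate evidence.

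**Figure D4:**
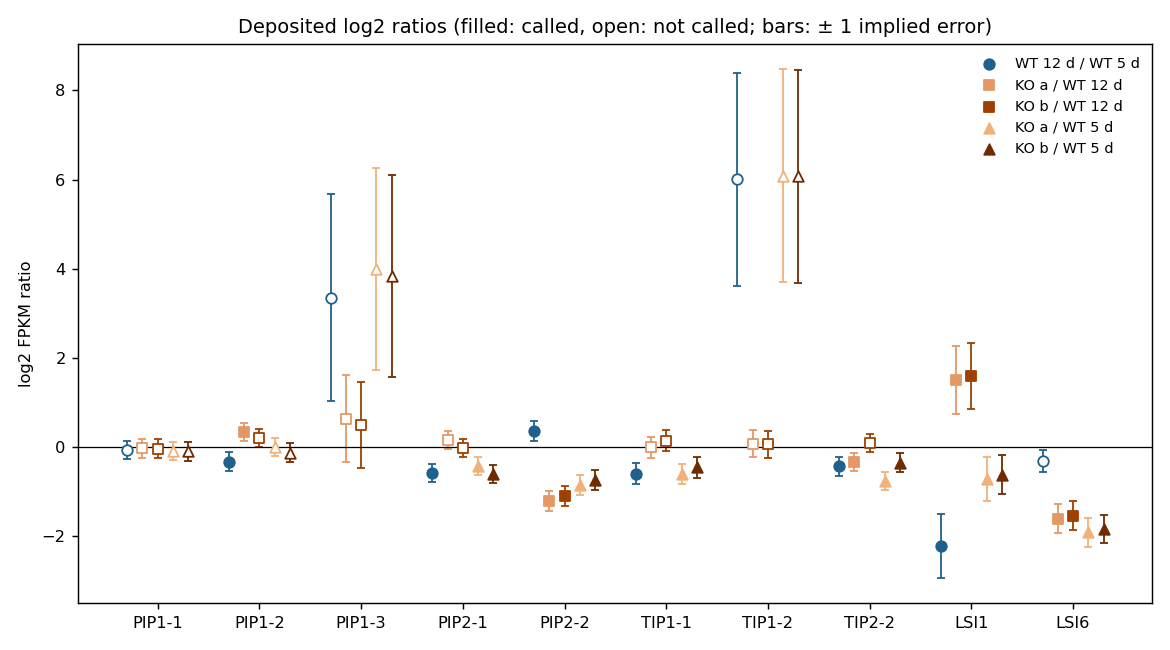
Deposited log2 FPKM ratios of the 10 genes in 5 comparisons, with bars of ± 1 implied error, filled where called and open where not. LSI6 and PIP2-2 are below 0 in all 4 knockout comparisons, LSI1 is above 0 against 12-day controls and below 0 against 5-day plants, and the tall open points of PIP1-3 and TIP1-2 are not called.

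Line b against line a tests how far 2 knockout lines of the same design differed. Only TIP2-2 was called, higher in line b, where 2.47% of 17876 tested loci were called higher and 2.52% lower. For the other 9 genes the log2 ratios lay between -0.19 (PIP2-1) and 0.15 (TIP1-1), with 95% intervals reaching from -1.78 to 1.48 in PIP1-3 as the widest. In the same comparison the leaf markers CAB2R and RCA were lower in line b (log2 -0.52 and -0.38, Cuffdiff q = 0.00301 and 0.0245). The leaf markers RBCS and CAB1R were not called (log2 -0.05 and -0.02). The leaf markers' part in the TIP2-2 difference was not tested.

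The rest of the family was read from a list of 23 further aquaporin loci, 19 of them with the same RefSeq name at a matching place. Only 10 of the 23 had enough fragments to be tested in any comparison, and 7 of those were called at least once. The share of all loci called at least once was not computed. Single comparisons called from 5.00% to 52.2% of tested loci. The levels of the untested loci were between 0 and 2.16 FPKM, among them PIP2-3, PIP2-8 and TIP2-1, with PIP2-5 and TIP5;1 listed at 0 in all groups.

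PIP2-7 (Os09g0541000), a plasma membrane aquaporin, had lower ratios to 12-day controls in the knockouts than any of the 10 genes. It stood at 101 FPKM in 5-day plants, 147 in 12-day controls, 32.6 in line a and 28.0 in line b. This was 4.52-fold and 5.25-fold below 12-day controls (log2 -2.17 and -2.39, implied error 0.24 each, Cuffdiff q = 2.53e-04 each). Like PIP2-2 it fell in the groups where the leaf markers fell, whose part was not tested, and it rose from 5 to 12 days in wild type (log2 0.54). PIP2-6 (Os04g0233400) stood at 544, 381, 317 and 340 FPKM in 5-day plants, 12-day controls, line a and line b, and fell against 5-day plants in all 3 other groups (log2 -0.51, -0.78 and -0.68).

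TIP4-1 (Os05g0231700), a vacuolar aquaporin, was higher in both knockouts. It stood at 59.6 and 61.1 FPKM in 5-day plants and 12-day controls and at 101 FPKM in each line. Against 12-day controls this was 1.65-fold in line a and 1.66-fold in line b (log2 0.73, implied error 0.22, in both), and against 5-day plants 1.70-fold in both. PIP2-4 (Os07g0448100) went from 3.14 FPKM in 12-day controls to 11.7 FPKM in line a and 10.7 FPKM in line b (log2 1.90 and 1.76, implied errors 0.61 and 0.62, Cuffdiff q = 2.53e-04 each). In 5-day plants it was listed at 1.13 FPKM, 10.4-fold and 9.46-fold below lines a and b (log2 3.37 and 3.24, implied error 0.99 each). Neither of these larger ratios was called (Cuffdiff q = 0.203 and 0.206).

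NIP3-1 (Os10g0513200), a boric acid channel also called DTE1, was lowest in 5-day plants. It stood at 5.86 FPKM there, 9.58 in 12-day controls, 12.6 in line a and 11.7 in line b. All 3 ratios to 5-day plants were called (log2 0.71, 1.11 and 1.00). Against 12-day controls line a was called higher (log2 0.40, Cuffdiff q = 0.0437) and line b was not called. NIP1-1 (Os02g0232900) fell between the wild types from 159 to 115 FPKM (log2 -0.46) and stood at 137 and 122 FPKM in lines a and b. Line b was also called lower than 5-day plants (log2 -0.37, Cuffdiff q = 0.00424), and line a was not called. The seventh called locus, Os05g0205000, shares its locus with Os05g0205050 and has no matching RefSeq name, and stood at 5.68, 5.01, 12.6 and 17.2 FPKM. SIP1-1, SIP2-1 and TIP4-2 were tested and not called. SIP1-1 stayed between 43.3 and 52.1 FPKM.

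By comparison, 4 of the 10 tested loci of this list were higher and 1 lower in line a than in 12-day controls, and 3 were higher and 1 lower in line b. Against 5-day plants 3 were higher in each line, and 2 and 3 were lower. Between the wild types 2 of 9 were higher and 2 lower. The shares of all tested loci are those given for the 10 genes, and the median log2 ratios of the list's tested loci were 0.26 and 0.15 in lines a and b against 12-day controls and 0.58 and 0.84 against 5-day plants. Among 6 proton pump loci, whose listed names RefSeq does not hold at these identifiers, 2 were higher and 3 lower in line a than in 12-day controls, and 3 and 3 in line b.

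**Figure D5:**
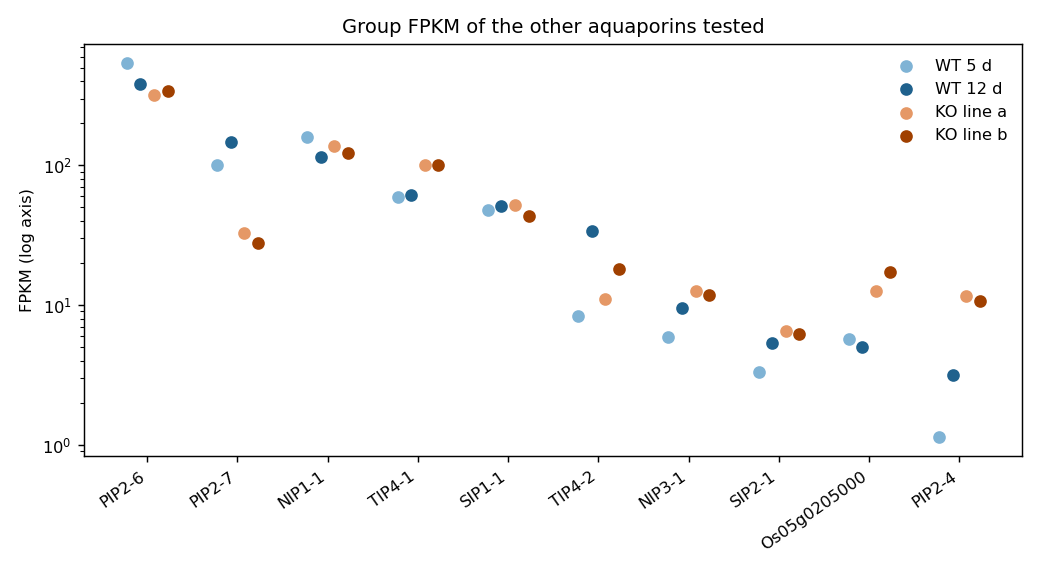
FPKM (log axis) in the 4 groups of the 10 further aquaporin loci that were tested, ordered by their level in 12-day controls. PIP2-7 falls from 147 FPKM in 12-day controls to 32.6 and 28.0 in the knockouts, while TIP4-1 and PIP2-4 are higher there.

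Likeness of expression over the 4 groups was measured as the root mean square difference of log2 FPKM after centring each gene on its own mean, among the 20 aquaporins at 1 FPKM or more in every group. The nearest aquaporin to LSI6 was PIP2-7 at 0.35, followed by PIP2-2 at 0.44. TIP1-1 was 0.12 from PIP2-1 and 0.12 from TIP2-2. The nearest to LSI1 was TIP1-1 at 0.66. PIP1-3 was nearest to PIP2-4, at 0.68. With only 4 points per gene these distances describe the groups. Of 19500 loci at this level, 1295 were nearer to LSI6 than PIP2-7 was. Likewise 440 were nearer to TIP1-1, 1212 to LSI1 and 86 to PIP1-3 than the nearest aquaporin of each. The distance of PIP1-3 rests in part on its 5-day level, whose implied error was 2.19 in log2.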

How the data were processed

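The members and gene lists were chosen with earlier results of these data known. The submitters' processing notes name HISAT2, Trimmomatic, FastQC, Cuffdiff and Cufflinks, and the build IRGSP-1.0. Versions, options, annotation release, library scaling and the treatment of reads shared by near-identical genes are not given in the sources used here, so values of close relatives such as PIP1-1 and PIP1-2 are uncertain to that extent. The authors' deposited table holds group FPKM over 3 replicates, log2 ratios, a score (the Cuffdiff test statistic), and p-values with q-values. The deposited q was within 5.27e-07 of Benjamini-Hochberg values computed jointly from the 108602 tests in the 6 comparisons. The smallest deposited p was 5e-05. The labels call the replicates biological and do not say whether they came from separate boxes. Cuffdiff's options are not given, so how far its p-values measure the spread between these samples is not known.

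Calls used the deposited q. At the median the implied error is larger than the deposited p assumes: the normal deviate of p was a median 1.75 times the statistic. The reverse held for some large ratios. For TIP1-2 between the wild types the 95% interval (log2 1.33 to 10.7) lay wholly on the higher side, yet Cuffdiff p was 0.198. Intervals of 95% are ± 1.96 implied errors. RefSeq names were matched on the same chromosome within 5 Mb. All 10 members are named. Of the further list those called at least once are named, and the others named were chosen after their values were seen. A list of 6 proton pump loci had no RefSeq match and is only counted. Computation used Python 3.11.15, pandas 2.3.3, numpy 2.4.6 and scipy 1.17.1, tested on simulated data. The alternatives tried were another q threshold, adjustment within each comparison, a 2-fold minimum, the statistic as a normal deviate, single-gene loci, a pseudocount of 1 FPKM, median centring and a minimum of 1 FPKM.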

Additional observations from a re-analysis of the deposited data

Results flagged for a closer look

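TIP2-2 differed between the knockout lines by the deposited test of line b against line a, with a log2 ratio of 0.42 (implied error 0.21, Cuffdiff q = 0.00132), from 498 FPKM in line a to 665 in b. It was the only 1 of the 10 members and the 10 tested further aquaporins called in that comparison. Of all 17876 tested loci 5.00% were called there, so this count is near the share over all loci. The call ends with a 2-fold minimum and when the statistic is read as a normal deviate.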

How the results depend on the processing

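Of 60 member ratios (10 genes, 6 comparisons) 27 were called, where single comparisons called from 5.00% to 52.2% of all tested loci. No called ratio changed direction under the 8 alternatives, but of these only median centring could have changed one. With q under 0.01, 6 calls were lost, with a 2-fold minimum 18, and with the statistic read as a normal deviate 14. Adjustment within each comparison moved no member's call. Single-gene loci, 1 FPKM added and median centring could not move one. Every member's locus holds a single gene name, and the pseudocount and the centring kept the deposited q. The 1 FPKM minimum could only drop ratios, and it left 57 of the 60 with their deposited calls. With q under 0.01, the members higher in 12-day controls than in 5-day plants went from 1 to 0, and those higher in line a than in 12-day controls from 2 to 1. With a 2-fold minimum the members called between the wild types became 0 higher and 1 lower (from 1 and 5), those higher in line a than in 12-day controls 1, those lower than 5-day plants 1 in each line (from 6), and those higher in line b than in line a 0 (from 1). In the further list this gave 0 higher and 0 lower between the wild types (from 2 and 2), 2 higher in line a against 12-day controls (from 4), and 1 lower in each line against 5-day plants (from 2 and 3). With the normal deviate the members called between the wild types were 0 higher and 2 lower. Those higher than 12-day controls were 0 in each line, those lower in line b than in 5-day plants 3, and those higher in line b than in line a 0. In the further list it gave 0 higher and 0 lower between the wild types, and 2 higher in line a against 12-day controls. No paired analysis was possible because the table holds 1 value per group, and for the same reason no replicate could be left out. Depth is unknown, so no lower limit is given for genes listed at 0.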

Other observations

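PIP2-4, PIP2-5 and PIP2-1 lie on chromosome 7 within a short stretch in the table, with 8760 bases between the loci of PIP2-4 and PIP2-5 and 36199 between those of PIP2-5 and PIP2-1. The coordinates listed for PIP2-4 and for PIP2-5 are each shared by 2 loci, so these gaps lie between listed stretches. The levels of the 3 genes differed widely. PIP2-5 was listed at 0 in all 4 groups, PIP2-4 stood between 1.13 and 11.7 FPKM, and PIP2-1 between 597 and 910.3 FPKM. In lines a and b PIP2-4 rose against 12-day controls (log2 1.90 and 1.76), while PIP2-1 was not called (log2 0.16 and -0.02).

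Neither knockout line had an aquaporin among the 10 members that rose against both wild types. In the further list TIP4-1 and Os05g0205000 rose against both wild types in both lines, and PIP2-7 fell against both.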
